A study of Caenorhabditis elegans with 8 samples.

Results

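Small RNA reads at the genes of the nematode Caenorhabditis elegans were compared between zsp-1 mutants that ate bacteria expressing oma-1 double-stranded RNA and zsp-1 mutants that ate control bacteria. The comparison uses 4 of the 8 libraries of the series, chosen by strain and food: 2 libraries of strain YY1683 on oma-1 RNAi and 2 on the empty vector L4440. The other 4 libraries are the same foods in N2, the standard wild type, and serve here only to show where the mutant differed. All 8 came from whole adults on day 1 of adulthood that had fed on HT115 bacteria at 20 °C; the stage label calls them gravid, the extraction text young adults. The series title names the mutated gene zsp-1, the genotype label of YY1683 writes zap-1(-), and neither gives the allele. The gene is listed under its other name, pid-2, in the count files.

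RNAi by feeding starts with long double-stranded RNA that is taken up from the gut, passed between cells and cut into primary small interfering RNAs (siRNAs). An Argonaute protein carries these to the matching mRNA, where RNA-dependent RNA polymerases copy the mRNA into the much more abundant secondary siRNAs. These are known as 22G RNAs, after their usual length and first base, and they have a 5′ triphosphate. The same polymerases make endogenous 22G RNAs against a large share of germline genes, so siRNAs from the food share their machinery with a large resident population. In the germ line, parts of the machinery sit in perinuclear granules; ZSP-1 localises to the Z granule, which is studied for its part in passing siRNAs from parent to progeny. The food target, oma-1, encodes a CCCH zinc-finger protein that acts together with its paralog OMA-2 in oocyte maturation and binds maternal mRNAs.

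The mutant libraries held 340932 and 136908 reads on L4440 and 228338 and 172615 on oma-1 RNAi. Levels are given as CPM, the reads of a gene scaled to a common library total, and 1 read was worth 2.90 to 8.19 CPM in the mutant libraries. Of 20191 genes in the files, 10760 had a read in at least 1 mutant library and 4567 had enough reads to be tested. The chi-square between mutant replicates was 1.84 per degree of freedom on L4440 and 2.16 on oma-1 RNAi, above sampling noise. The sources used here do not say whether reads were counted by strand, so siRNAs antisense to oma-1 and fragments of the ingested RNA cannot be told apart. In whole animals, fewer cells of a type and fewer siRNAs per cell cannot be told apart either.

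The mutated gene was checked first. Reads at pid-2 (chromosome I, 93024 to 94884) were 14 and 2 on L4440 and 9 and 4 on oma-1 RNAi in the mutant, against at least 57 in each wild-type library. Every mutant library was lower than every wild-type library. Within the mutant, pid-2 differed between foods by a log2 of -0.04 (SE 0.58, adjusted p = 0.9999, edgeR quasi-likelihood test with Benjamini-Hochberg adjustment). The gene overlaps Y48G1C.13 on the opposite strand, and whether reads of the pair were separated is not known.

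In mutants on oma-1 RNAi, small RNA reads rose at 2 of the 4567 tested genes, oma-1 itself and the related zinc-finger gene moe-3. Both rises were above 50-fold, and both genes also rose in wild type. No tested gene fell in this fit, which takes the libraries of a food as unpaired. The 2 rises are 0.0438% of the tested genes and the falls 0.0%. These counts depend on the pairing: a fit that blocks on the replicate number gave 5 rises, oma-1 and moe-3 among them, and 7 falls.

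The target, oma-1, lies on chromosome IV at 8888976 to 8890999 of build WBcel235, on the plus strand, with 1801 bases of exon and no overlapping gene. It had 42 and 20 reads in the mutant on L4440, and 2541 and 3402 reads on oma-1 RNAi. As levels, these were 122 and 164 CPM on L4440 and 10513 and 21576 CPM on oma-1 RNAi. The foods were far apart, and within the oma-1 RNAi pair the higher library had about double the level of the lower. Means were 143 ± 29.6 CPM on L4440 and 16044 ± 7823 CPM on oma-1 RNAi (SD, n = 2). On the log2 scale oma-1 rose by 6.85 (SE 0.47, 95% interval 5.88 to 7.82), a 115-fold rise, with an adjusted p of 4.454e-10 by edgeR's quasi-likelihood test.

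The same rise can be read as a share of each library. On L4440, oma-1 took 0.0123% (exact Clopper-Pearson 95% interval 0.00888 to 0.0167%) and 0.0146% (0.00892 to 0.0226%) of the reads. On oma-1 RNAi it took 1.11% (1.07 to 1.16%) and 1.97% (1.91 to 2.04%). These intervals cover counting error only. The mean share was higher by 1.53 percentage points, and an exact two-sided permutation test gave p = 0.3333, the smallest that 2 libraries against 2 allow.

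On L4440, oma-1 was an ordinary germline gene in this small RNA population, and ranked 1658th and 1235th by reads. On oma-1 RNAi it ranked 1st in both libraries, ahead of Y71A12B.10 with 2043 and 1830 reads. Per kilobase of exon it ranked 1813th and 1401st on L4440 and 6th and 3rd on oma-1 RNAi. The food therefore placed oma-1 among the most densely read genes of the mutant, though endogenous loci remained denser per length.

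**Figure D1:**
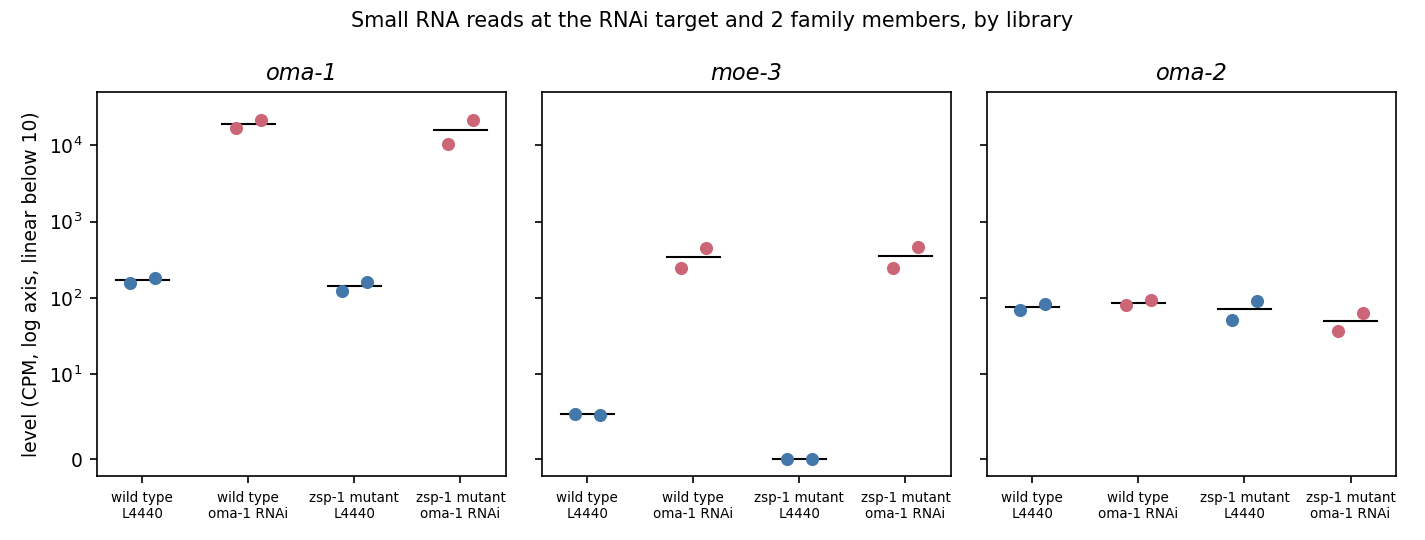
Levels of oma-1, moe-3 and oma-2 in each library (CPM, log axis), one point per library, by strain and food. The mutant libraries on oma-1 RNAi stand at 10513 and 21576 CPM for oma-1, those on L4440 at 122 and 164, while oma-2 in the mutant lies between 37.2 and 90.1 CPM over both foods.

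The response of the target did not differ detectably between genotypes. In wild type, oma-1 had 29 and 35 reads on L4440 and 5076 and 5789 on oma-1 RNAi, a log2 fold change of 6.82 (SE 0.47). The mutant response minus the wild-type response was 0.03 on the log2 scale (SE 0.55, adjusted p = 0.9998 by edgeR's quasi-likelihood test). Its 95% interval runs from -1.10 to 1.16, so differences of up to about 2-fold in either direction are within the error. The mutant share of reads at oma-1 on oma-1 RNAi, 1.54% ± 0.607, was lower than the wild-type share of 1.99% ± 0.224 (SD, n = 2 each). The 1.97% library of the mutant lay between the wild-type libraries at 1.83% and 2.15%, and the exact two-sided permutation p was 0.667.

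In the unpaired fit the single gene that rose besides the target was moe-3. This CCCH zinc-finger gene is named for its likeness to oma-1 (moe-1) and oma-2 (moe-2). It lies on chromosome II at 13160545 to 13165733, on the minus strand, with 1307 bases of exon and no overlapping gene. It had 0 and 0 reads in the mutant on L4440 and 60 and 74 on oma-1 RNAi, or 248 and 469 CPM. Against a floor of 3 reads over both L4440 libraries, the level was at least 53.2-fold higher on oma-1 RNAi, with an adjusted p of 7.076e-07 by edgeR's quasi-likelihood test. In wild type, moe-3 had 1 and 1 reads on L4440 and 74 and 121 on oma-1 RNAi. The ratio of pooled read shares there was 65.0 (95% counting interval 17.7 to 540). How multiply mapping reads were counted is not known, so oma-1 reads assigned to moe-3 cannot be told apart from its own. Sequence shared by the genes was not tested.

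The rise at moe-3 kept a like ratio to the rise at the target across both mutant libraries. For every 100 oma-1 reads there were 2.36 and 2.17 moe-3 reads in the mutant, and 1.46 and 2.09 in wild type. The mutant libraries lay above both wild-type libraries in this ratio, the closest at 2.17 and 2.09 from 74 and 121 moe-3 reads. No counting error was computed for the ratio, and the exact two-sided permutation test with 2 against 2 cannot pass 0.05. By edgeR's quasi-likelihood test the response of moe-3 did not differ detectably between genotypes (adjusted p = 0.9998). In rank by reads, moe-3 stood 742nd and 431st in the mutant on oma-1 RNAi.

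The paralog oma-2, whose product acts redundantly with OMA-1 in oocytes, passed the test in neither direction. It lies on chromosome V at 8029439 to 8031214, with 1546 bases of exon. In the mutant it had 18 and 11 reads on L4440 and 9 and 10 on oma-1 RNAi, or 52.3 and 90.1 CPM against 37.2 and 63.4 CPM. The foods overlapped. The log2 fold change was -0.42 (SE 0.47, 95% interval -1.40 to 0.55, adjusted p = 0.9999 by edgeR's quasi-likelihood test), and the upper bound lies far below the changes of oma-1 and moe-3. Wild type had 13 and 16 oma-2 reads on L4440 and 24 and 25 on oma-1 RNAi, and the difference of the responses was -0.59 on the log2 scale (SE 0.62).

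No other member of the CCCH zinc-finger list passed the test. The list holds 18 genes; 5 had no read in any mutant library (ccch-1, ccch-2, dct-13, F38C2.7 and Y116A8C.20), 10 were tested, and oma-1 and moe-3 were the 2 that rose. Without those, the family summed to 691 and 696 CPM on L4440 and 674 and 672 CPM on oma-1 RNAi. Among the embryonic fate regulators, mex-5, which patterns the zygote, had 45 and 19 reads on L4440 and 39 and 30 on oma-1 RNAi, a log2 of 0.32. Its close relative mex-6 had 21 and 10 reads and then 12 and 9, a log2 of -0.37. The germline fate gene pie-1 had 25 and 4 reads and then 12 and 8, a log2 of -0.23. The posterior fate gene pos-1 had a log2 of -0.34 and mex-1 of 0.01. 

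Secondary siRNAs are made along the targeted transcript, so the genes around oma-1 were examined separately. Within 50 kb of oma-1 on either side lie 28 genes, of which 12 had no read in any mutant library and 8 were tested. None of the 8 was called by edgeR or DESeq2, and 0 had an unadjusted p under 0.05 in edgeR, with log2 fold changes of -0.72 at C27B7.5 to 0.59 at rap-1, a median of -0.03 and a smallest unadjusted p of 0.0797 in edgeR. Summed over the 28 genes, the reads made 752 and 745 CPM on L4440 and 732 and 590 CPM on oma-1 RNAi.

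Some of the nearest genes were silent in this assay and others had reads on both foods. C09G9.5, C09G9.8, npax-4, hdl-2 and C27B7.6 had 0 reads in all 4 mutant libraries, also on oma-1 RNAi. At spr-2, a suppressor of presenilin, there were 12 and 4 reads on L4440 and 13 and 1 on oma-1 RNAi. C27B7.2, too sparse to be tested, had 6 and 3 reads and then 7 and 4. The DNA repair helicase gene rad-26, the most counted of the neighbours named here, had 94 and 31 reads on L4440 and 66 and 27 on oma-1 RNAi. The nucleoporin gene npp-23 had 35 and 10 reads and then 17 and 14. The rise was thus measured at oma-1 and at no tested neighbour.

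**Figure D2:**
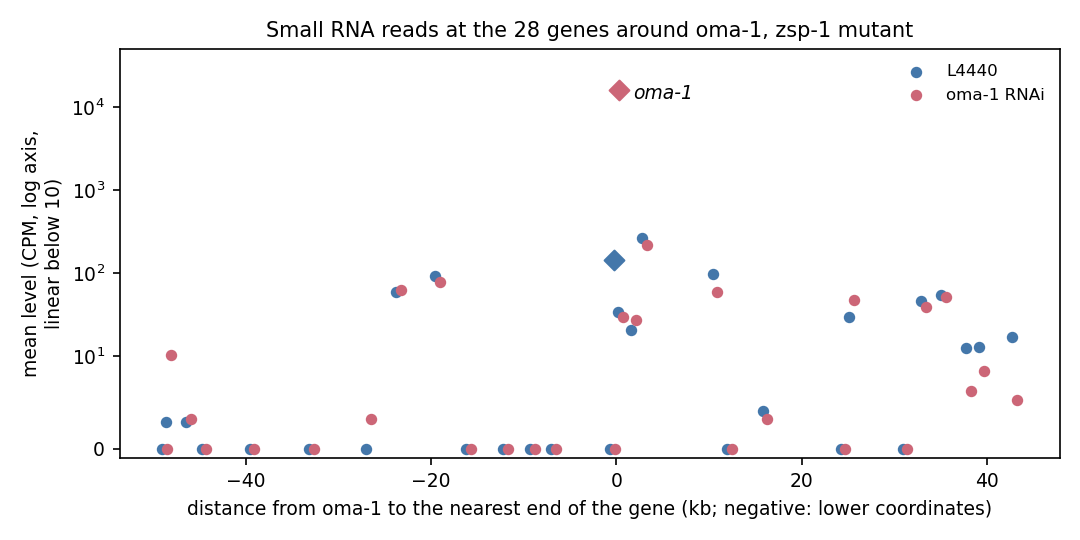
Mean level in the mutant on each food (CPM, log axis, linear below 10) of the 28 genes within 50 kb of oma-1 against their distance from it (kb; the foods are drawn slightly apart). Diamonds mark oma-1, at 143 CPM on L4440 and 16044 CPM on oma-1 RNAi; the points of the other genes lie close together on both foods.

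Across the genome the unpaired fit called no other change in the endogenous siRNA population of the mutant. Beside the 2 rises and 0 falls, edgeR gave 129 genes an unadjusted p under 0.05 (2.82% of those tested; 52 higher and 77 lower), and DESeq2 called the same numbers of rises and falls and gave 33 genes an unadjusted p under 0.05. With the replicate block edgeR gave 312 genes an unadjusted p under 0.05, so this number also depends on the pairing. In the unpaired edgeR fit the smallest p after oma-1 and moe-3 was 0.000758, with an adjusted p of 0.9999. The median log2 fold change over all tested genes was -0.02, and the 5th to 95th percentiles spanned -0.76 to 0.66. Every oma-1 RNAi library lay above every L4440 library at 645 genes (14.1% of those tested) and below at 783 (17.1%).

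How small a change could be seen depended on how many reads a gene had. In 388 genes with at least 500 CPM the log2 fold changes had an SD of 0.245, and 80.4% of these genes had a 95% interval within a log2 of -1 to 1. In 1046 genes under 50 CPM the SD was 0.753, and 0.287% had such an interval. Over all tested genes, 1603 (35.1%) had an interval inside that range. For the remaining genes a change of 2-fold was not excluded at this depth. Besides oma-1 and moe-3, 199 genes had a fitted change beyond that range (83 higher, the rest lower), with a median level of 34.0 CPM against 90.9 CPM for all tested genes. The median log2 fold change was -0.105 in the genes with at least 500 CPM and between -0.016 and -0.009 at lower levels.

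**Figure D3:**
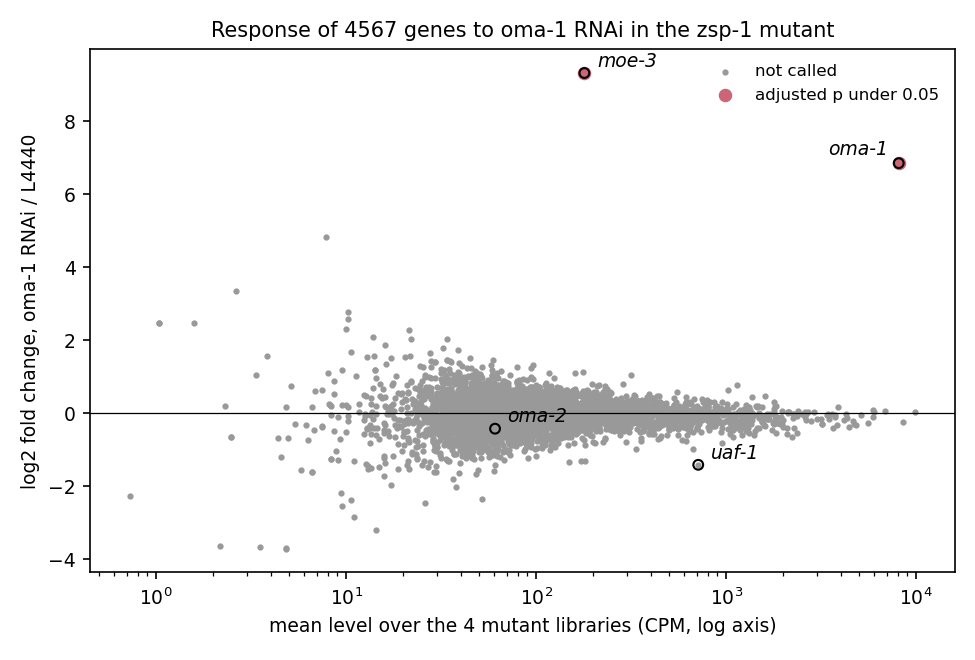
Log2 fold change in the mutant (oma-1 RNAi over L4440) of the 4567 tested genes against their mean level over the 4 mutant libraries (CPM, log axis). Filled red points are the 2 genes with an adjusted p under 0.05, and open circles mark 4 named genes; the fitted value of moe-3, with 0 reads on L4440, depends on the fit's prior count and is no estimate of size.

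The composition of the libraries was also alike on both foods. Leaving out oma-1 and moe-3, Pearson's r of log2 CPM across genes was 0.918 between the L4440 libraries and 0.916 between the oma-1 RNAi libraries. Between foods it was 0.903 to 0.947, so libraries of different foods were as alike as replicates; these correlations are across genes, which are not independent replicates. At an equal depth of 136908 reads, 7704 and 7594 genes had a read on L4440 and 7556 and 7438 on oma-1 RNAi. At this depth the foods did not overlap, with means of 7649 ± 78.1 and 7497 ± 83.4 (SD, n = 2, exact two-sided permutation p = 0.3333). With the oma-1 reads taken out before thinning to 136888 reads, the difference was 130 genes fewer on oma-1 RNAi instead of 152. At a depth of 68454 reads the foods overlapped. There 6594 and 6483 genes had a read on L4440 and 6505 and 6391 on oma-1 RNAi (exact two-sided permutation p = 0.6667).

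The genes with the most reads held like shares on both foods. Reads of oma-1 were left out of these shares. The 20 most counted other genes took 9.58% and 10.96% on L4440. On oma-1 RNAi they took 9.28% and 10.67% (exact two-sided permutation p = 0.667). Their log2 fold changes ran from -0.40 at B0250.8 to 0.17 at kel-1, with a smallest unadjusted p of 0.230 in edgeR. Their median was -0.12, against -0.105 in the 388 genes with at least 500 CPM. Of the most counted genes, named after their values were seen, Y71A12B.10 had a log2 of 0.04 and bath-45 of 0.03. The autophagy receptor gene sqst-1 had -0.24 and the aminotransferase gene got-1.2 had -0.27. By chromosome, the median log2 fold change lay between -0.11 for the 217 tested genes of X and 0.00 for those of chromosome IV, which holds oma-1. Genes of X took 5.88% and 6.31% of all reads on L4440 and 5.46% and 6.055% on oma-1 RNAi, and the foods overlapped.

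Genes too sparse to be tested held 5.09% of the mutant reads. None of them had more than 20 reads in a library on oma-1 RNAi, or more than 25 over both. Among those with 0 reads on L4440, the highest count was 7, at T05G5.5, with 7 and 2 reads on oma-1 RNAi; Y25C1A.13 had 4 and 5. A gene with counts like those of moe-3 in both oma-1 RNAi libraries passes the filter, so no untested gene could have reached them.

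The genes nearest to a call in the mutant were taken as the 8 with the smallest p in each direction, and none passed the test (adjusted p = 0.9999 for each by edgeR's quasi-likelihood test). With the replicate number as a block, mel-11, C17H12.2, fbxa-111, uaf-1 and C06C3.10 passed. All 16 had foods that did not overlap in the mutant, which choosing by small p favours. Over all tested genes the oma-1 RNAi libraries lay wholly above at 14.1% and wholly below at 17.1%. In wild type 10 of the 16 had the same sign, against 50.7% of all genes other than oma-1 and moe-3. On the higher side, exo-3, an endonuclease gene of DNA repair, had 20 and 6 reads on L4440 and 36 and 20 on oma-1 RNAi, a log2 of 1.33 (SE 0.41). The myosin phosphatase subunit gene mel-11 had 43 and 11 reads and then 72 and 30, a fitted ratio of 2.21. The chromatin remodelling gene snfc-5, C17H12.2, the nuclear receptor gene nhr-64, the splicing gene rsr-2, Y40D12A.1 and T25G3.1 had log2 values of 1.06 to 1.75.

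On the lower side the most counted gene was uaf-1, which encodes the large subunit of the splicing factor U2AF. It had 401 and 112 reads on L4440 and 131 and 36 on oma-1 RNAi, or 1164 and 917 CPM against 542 and 228 CPM. Each oma-1 RNAi library was below each L4440 library, with a log2 of -1.41 (SE 0.39, unadjusted p = 0.00122 in edgeR). The uaf-1 response in the zsp-1 mutant had a log2 of -2.21 without mutant oma-1 RNAi replicate 1 and -0.87 without replicate 2, and neither passed the test. With the replicate block it was -1.40 with an adjusted p of 0.00022 by edgeR's quasi-likelihood test. In wild type the foods overlapped, at 156 and 419 CPM on L4440 and 348 and 383 CPM on oma-1 RNAi (log2 0.34, SE 0.40). The smallest p belonged to F55H12.3, with 37 and 8 reads on L4440 and 4 and 3 on oma-1 RNAi, a log2 of -2.35.

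The other genes of the lower side had fewer reads. The F-box gene fbxa-111 had 70 and 39 reads on L4440 and 23 and 17 on oma-1 RNAi, a log2 of -1.31. C06C3.10 had 76 and 25 reads and then 21 and 13, a log2 of -1.33. The protein kinase A catalytic subunit gene kin-1 had 14 and 6 reads and then 2 and 1, a log2 of -2.45. ZC434.8, R03D7.2 and T25G12.11 had log2 values of -1.57, -1.80 and -2.01. C06C3.10 and ZC434.8 each overlap a gene on the opposite strand, whose reads cannot be separated from theirs.

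Outside oma-1 and moe-3 the fitted responses of the genotypes were nearly uncorrelated. With a median SE of 0.41 in the mutant, a low correlation cannot show whether small responses were shared. Across the other 4565 genes Pearson's r between the mutant and the wild-type log2 fold changes was 0.0245, given as a description, and 2315 genes (50.7%) had the same sign. Of 127 of these genes with an unadjusted p under 0.05 in the mutant, 78 (61.4%) had the same sign in wild type and 6 also had an unadjusted p under 0.05 there. The genotypes share no libraries. EdgeR called 2 rises and 0 falls in wild type too, the same 2 genes. For the difference of the responses edgeR called 0 genes with 113 at an unadjusted p under 0.05 (2.47%), and DESeq2 called 0 with 20. With the replicate block edgeR called 2, F46F2.4 and uaf-1.

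**Figure D4:**
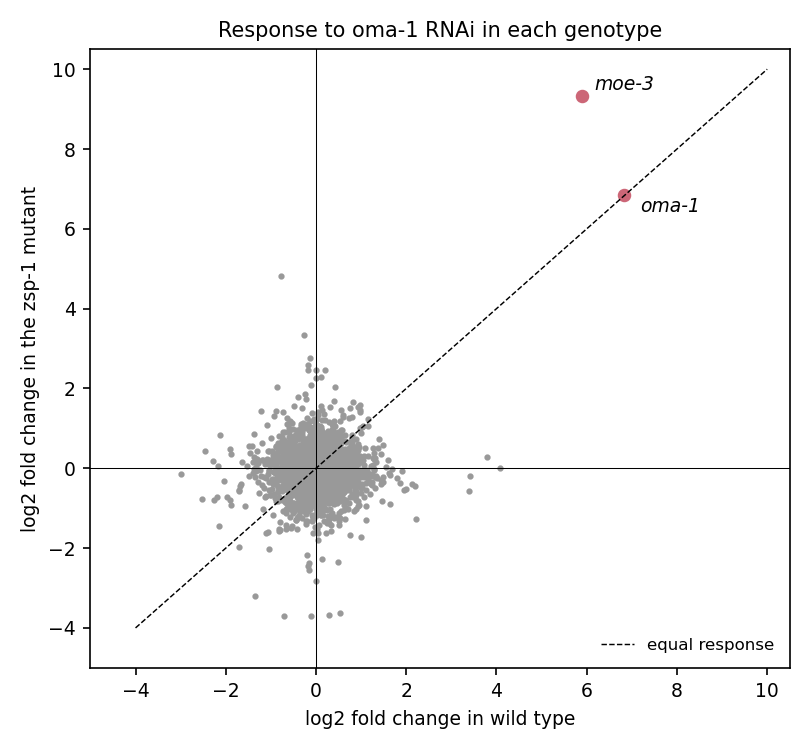
Log2 fold change (oma-1 RNAi over L4440) of each tested gene in the mutant against that in wild type; the dashed line marks an equal response. The red points of oma-1, at 6.82 and 6.85, and of moe-3, whose fitted values depend on the prior count, stand apart from a round cloud of the other genes.

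Genes of the RNAi pathway are themselves targets of endogenous siRNAs, and were followed as lists. Among 26 genes of double-stranded RNA uptake and exogenous RNAi, 19 were tested and 0 rose or fell in edgeR. Their median log2 fold change was -0.13, against -0.02 over all tested genes, with 4 above 0 and 15 below; the median in wild type was 0.14. The gene of the double-stranded RNA channel, sid-1, had 3098 and 3784 CPM on L4440 and 2673 and 4015 CPM on oma-1 RNAi, and the foods overlapped. The RNA-binding partner of Dicer, rde-4, had 505 and 541 CPM and then 447 and 450 CPM. The gene rrf-1, one of the polymerases that make secondary siRNAs, had 186 and 164 CPM and then 141 and 108 CPM, a log2 of -0.49 (SE 0.35). The largest values of the list were at ekl-1, a partner of such polymerases, with 58.1 and 81.9 CPM and then 29.0 and 38.1 CPM, and at rsd-2 (log2 0.87, SE 0.62). DESeq2 called no gene of this list or of those that follow, and the number of genes with an unadjusted p under 0.05 in edgeR was 0 here and is given below where it was higher.

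In the mutator list, for the compartment where secondary siRNAs are amplified, 6 of 7 genes were tested with 0 calls in edgeR and a median log2 of -0.08. The MUT-7 partner gene rde-2 had 160 and 107 CPM on L4440 and 103 and 25.4 CPM on oma-1 RNAi, a log2 of -0.99 (SE 0.43). Its unadjusted p in edgeR was 0.0291, the only value under 0.05 in the list. The rde-2 response in the zsp-1 mutant had a log2 of -2.45 without mutant oma-1 RNAi replicate 1 and -0.36 without replicate 2. Of 20 Argonaute genes, 9 were tested with 0 calls and a median of -0.03. The nuclear germline Argonaute gene hrde-1 had 839 and 868 CPM and then 997 and 1097 CPM, a log2 of 0.29 (SE 0.29). The gene csr-1, whose product binds siRNAs against expressed germline genes, had 883 and 909 CPM and then 1088 and 869 CPM.

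No granule gene passed the test either. Of 16 genes of the Z granule and siRNA inheritance, 15 were tested with 0 calls in edgeR and a median log2 of -0.00. ZK1067.2, the gene of the Z granule helicase ZNFX-1, had 552 and 582 CPM on L4440 and 695 and 634 CPM on oma-1 RNAi, a log2 of 0.24 (SE 0.30). The Z granule Argonaute gene wago-4 had 1437 and 1278 CPM and then 1365 and 1294 CPM. Of 17 P granule genes 14 were tested, with 0 calls, a median of 0.18 and 10 values above 0. Among them the Vasa helicase gene glh-1 had 287 and 393 CPM and then 252 and 222 CPM, a log2 of -0.48 (SE 0.33), and the helicase gene cgh-1 had 212 and 172 CPM and then 261 and 266 CPM, a log2 of 0.43 (SE 0.32).

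Loci of the ERGO-1 class, endogenous siRNAs known to compete with food-derived siRNAs for shared factors, bear on shifts in the resident population. Of 18 such loci with a row, 11 were tested, 0 were called by edgeR, and the median log2 was -0.21, with 4 above 0 and 7 below. The median in wild type was -0.20. Y37E11B.2, the most counted of those named by rule, had 904 and 347 reads on L4440 and 398 and 286 on oma-1 RNAi, or 2624 and 2842 CPM against 1647 and 1814 CPM. Both oma-1 RNAi libraries were lower, with a log2 of -0.66 (SE 0.30); its unadjusted p of 0.0374 in edgeR was the 1 under 0.05 in the list. It passed the test with the replicate block, and the gene overlaps Y37E11B.1 on the same strand. E01G4.5 had 825 and 917 CPM and then 608 and 603 CPM, a log2 of -0.52 (SE 0.32). ZK380.5 had 1344 and 1630 CPM and then 1063 and 1173 CPM, a log2 of -0.41 (SE 0.31). These loci were named for their small p. The most counted locus of the list, C44B11.6, had 5629 and 7870 CPM and then 6421 and 7585 CPM, a log2 of 0.05. K02E2.6 had 1960 and 2277 CPM and then 1994 and 2283 CPM, a log2 of 0.02.

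Targets of nuclear silencing, where germline Argonautes hold down transcription, gave 7 tested of 8, 0 calls in edgeR and a median log2 of -0.18. F15D4.5 had 4384 and 4463 CPM on L4440 and 3202 and 4611 CPM on oma-1 RNAi. C41D11.6 had 450 and 508 CPM and then 310 and 355 CPM, a log2 of -0.52 (SE 0.31). It overlaps eri-6 on the opposite strand, and whether reads of the pair were separated is not known. The foods overlapped at the first gene and were apart at the second, and neither passed the test.

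The oocyte programme around OMA-1 was followed through 15 genes of its partners and regulated mRNAs. Of these, 13 were tested with 0 calls in edgeR and a median log2 of -0.09, 3 above 0 and 10 below. The translational repressor gene gld-1 had 218 and 262 CPM on L4440 and 186 and 159 CPM on oma-1 RNAi, a log2 of -0.44 (SE 0.35). The E3 ligase substrate receptor gene zif-1, an mRNA that OMA-1 represses, had 66.8 and 65.5 CPM and then 82.7 and 82.5 CPM. Its log2 was 0.31 (SE 0.40), and it overlaps rab-6.1 on the opposite strand. The Wnt ligand gene mom-2 had 37.7 and 24.6 CPM and then 82.7 and 19.03 CPM, so the foods overlapped. Among 34 genes of oogenesis and maternal supply 29 were tested, with 0 calls and a median of -0.07.

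Broader lists gave the same count of 0 calls in edgeR. The medians were 0.12 for 16 tested genes of meiotic chromosomes, 0.07 for 10 histone genes and 0.07 for 32 ribosomal protein genes. They were -0.10 for 7 collagen genes, -0.09 for 60 F-box genes and -0.10 for 6 sperm genes. The 217 tested X-linked genes had a median of -0.11, with 74 above 0 and 143 below, and 0.05 in wild type. An unadjusted p under 0.05 in edgeR was found for 6 of the 60 F-box genes (10%), against 2.82% of all tested genes. Of these, fbxa-181 was higher and fbxa-111, fbxb-45, fbxa-11, fbxa-136 and fbxb-14 were lower. Few reads lay behind fbxa-181, with 2 and 1 on L4440 and 5 and 8 on oma-1 RNAi. The level of fbxa-136 was also low, at 17.4 and 16.4 CPM and then 4.14 and 0 CPM. For X-linked genes it was 6 of 217 (2.76%), 1 higher and 5 lower.

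**Figure D5:**
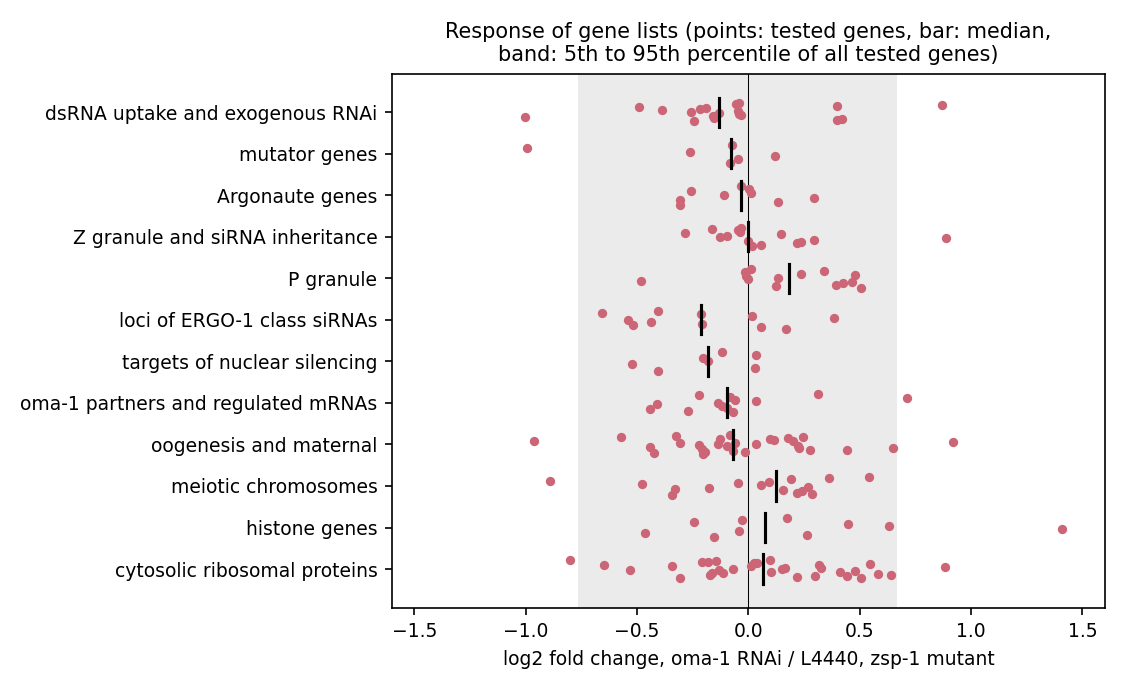
Log2 fold change in the mutant (oma-1 RNAi over L4440) of the tested genes of 12 lists; each point is a gene, the black bar is the list's median, and the grey band spans the 5th to 95th percentiles of all tested genes, -0.76 to 0.66. Medians run from -0.21 for loci of ERGO-1 class siRNAs to 0.18 for P granule genes, inside the band.

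Markers of tissues showed which siRNAs the whole-animal libraries held. The 8 germ line markers had 595 and 225 reads on L4440 and 450 and 256 on oma-1 RNAi, and all 8 were tested with a median log2 of -0.01. Oocyte markers other than oma-1 had 481 and 175 reads and then 319 and 238. Muscle markers had 13 and 2 reads and then 2 and 4, with myo-1, myo-2, myo-3, tnt-2 and mlc-1 at 0 among 13. Intestine markers had 19 and 3 reads and then 14 and 8, with 6 of 14 at 0. Neuron markers had 106 and 58 reads and then 56 and 51, with unc-13 and snt-1 at 0 among 10, and 3 tested genes at a median of -0.78. Much of this sum came from egl-21, with 56 and 31 reads and then 32 and 33, and from ric-19, with 20 and 18 and then 11 and 10. Wild type had 9 and 16 and then 11 and 25 reads at egl-21, and 0 and 1 and then 0 and 0 at ric-19. The neuron genes snb-1 and ric-19 had log2 values of -0.80 (SE 0.55) and -0.78 (SE 0.57), and neither passed the test.

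Some genes have many more siRNAs in the mutant than in wild type on both foods. A set of 12 such genes, known from earlier results of these libraries, was read for its response to the food. All 12 were tested, 0 were called by edgeR and the median log2 was -0.09, with 10 below 0 and 2 above. The 388 genes with at least 500 CPM had a median of -0.105. The endosomal trafficking gene vps-50 had 1521 and 734 reads on L4440 and 1040 and 914 on oma-1 RNAi, a log2 of -0.04, while its wild-type libraries had 5 to 23 reads. The cadherin gene cdh-5 had 420 and 199 reads and then 249 and 243, a log2 of -0.15, and ZK673.4 had 450 and 174 and then 253 and 201, a log2 of -0.23. At the far end, chst-1 had 41 and 25 reads and then 43 and 56, a log2 of 0.78 with an unadjusted p of 0.0494 in edgeR.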

How the data were processed

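Small RNAs of 18 to 35 nt from 20 µg of total RNA were cloned by a protocol that also captures 5′ triphosphate ends, per the labels' protocols. The authors' deposited files hold raw read counts per gene, 1 library a file. The submitters' processing notes name cutadapt 1.14, TopHat2 2.1.1, featureCounts 1.6.0 and build WBcel235. The sources used here give no strand setting, length filter or treatment of multiply mapping reads, so near-identical genes can share reads.

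Counts were analysed with edgeR 4.0.16 in R 4.3.3: filterByExpr (minimum count 10), TMM scaling, and a quasi-likelihood fit of 4 group means to all 8 libraries, so that both genotypes share an estimate of spread. Genes were called at a Benjamini-Hochberg adjusted p under 0.05. SE was obtained by dividing the size of the log2 fold change by the root of F. Alternatives (DESeq2 1.42.0, other filters and scalings, a replicate block, leaving out libraries) are in the closing section. Coordinates are those deposited with the counts, and gene types are from the Ensembl annotation of the same build. Named genes were oma-1, oma-2, moe-3, pid-2, called genes, the 8 smallest p each way at a mean of at least 10 CPM, the nearest neighbours and up to 4 genes a list. The genes sid-1, rde-4, csr-1, wago-4, C44B11.6 and K02E2.6, the most counted and untested genes and those of the set of 12 were added after their values were seen. The members and lists were chosen with earlier results of these data known. Whether libraries of a group are separate cultures is not stated, so p-values reflect the spread among these libraries, possibly technical.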

Additional observations from a re-analysis of the deposited data

How the results depend on the processing

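The oma-1 response in the mutant stayed between 6.31 and 7.26 (log2) over all alternatives run and passed the test in each. oma-1 and moe-3 were the 2 rises in every setting except the replicate block, which gave 5 rises (adding C17H12.2, Y48G1C.6 and mel-11) and 7 falls (C06C3.10, C24H10.4, F46F2.4, Y37E11B.2, bath-13, fbxa-111 and uaf-1). Under this block 2 genes differed between genotypes, F46F2.4 and uaf-1. Deviations of same-numbered libraries from their group means correlated at 0.244 between the mutant groups and at 0.171 to 0.347 over all 6 pairs of groups, so same-numbered libraries deviated together. The labels do not say what a number marks and each group has 2 libraries, so the unpaired fit is reported as the main result and the blocked one beside it. Leaving out 1 library gave 0 to 1 falls; the fall was F46H5.4 without oma-1 RNAi replicate 1 of the mutant, where the remaining library has 3 reads. Genes that differed between genotypes numbered 0 to 7 when 1 library was left out, with 7 (pals-26 and uaf-1 among them) without wild-type L4440 replicate 2, and 1 (pals-26) with no filter. The difference in the oma-1 response ran from -0.53 without mutant oma-1 RNAi replicate 2 to 0.42 without replicate 1, and passed the test in no setting. Where a food was left with 1 library, that library is assumed to vary like the others. The cause of these changes was not tested. Of values of named genes, 1245 stayed alike, 49 moved and 8 newly passed the test; of list medians, 266 stayed alike and 28 moved, with the median of all genes between -0.04 and 0.04. Leaving out genes that share sequence with oma-1 was not run. Of list medians 64 of 294 changed sign, and 35 of 1302 gene values. Each group has 2 libraries, and 1 read is worth 2.90 to 8.19 CPM in the mutant, so changes at genes with few reads have wide intervals.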
